A study of Mus musculus with 6 samples.

Results

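Genes best known as secretory products and markers of the stomach lining were followed in epithelium from the crypts of the mouse jejunum, the stretch of small intestine between duodenum and ileum. The set held 10 genes: the gastrokines Gkn1, Gkn2 and Gkn3, the trefoil factors Tff1 and Tff2, the mucins Muc5ac and Muc6, the pepsinogen gene Pgc, and Sult1c2 and Anxa10. Every probe set whose platform annotation gave 1 of these symbols and no other was taken. That gave 12 probe sets for 9 of the 10 genes, out of 45037 probe sets and 18193 genes of 1 symbol on the array. Muc6 was matched by no such probe set and was not analysed here. The set was chosen by the measured level of Gkn3, which was lower in the mutants than in the controls, so the Gkn3 values and the mutant against control differences of the other members are given as a description, without a test.

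The mice were 3 Sox9-deficient animals (KO 1 to KO 3) and 3 wild type littermate controls (WT 1 to WT 3), all C57BL/6 and 3 months old, with 1 single-colour Affymetrix array for each. The labels name no allele, Cre driver or litter, and do not say whether Sox9 was lost in the epithelium alone. Levels are log2 GCRMA intensities. A probe set is called above the floor where its average of the 6 arrays is 4 or more, and 59.45% to 60.63% of the probe sets on each array read under that level.

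In the stomach, surface mucous cells make Muc5ac, Tff1, Gkn1 and Gkn2, and gland mucous cells make Muc6 and Tff2. Chief cells release pepsinogens, and parietal cells release acid through the proton pump encoded by Atp4a and Atp4b. Gastrokines are small secreted proteins with a BRICHOS domain, and trefoil factors are small disulphide-bonded peptides that are released with mucins. The mucous glands of the duodenum also make Muc6 and Tff2. In the small intestine the main gel-forming mucin is Muc2 and the main trefoil factor Tff3, both from goblet cells. Gkn3 has also been used as a marker of crypt base stem cells of the mouse small intestine, beside Lgr5.

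The 3 gastrokine genes lie next to each other on chromosome 6, with 0 other protein-coding genes between them in the RefSeq table. Their promoter windows are shown because 1 of these neighbours, Gkn3, read above the floor and the others did not. Each window runs from 250 bases before to 50 bases after the gene's start (RefSeq, GRCm38.p6), read 5′ to 3′ on the gene's strand. Capitals mark GATAA or its reverse complement TTATC, the core of sites for GATA factors.
Gkn1, chr6:87350866-87351165, minus strand: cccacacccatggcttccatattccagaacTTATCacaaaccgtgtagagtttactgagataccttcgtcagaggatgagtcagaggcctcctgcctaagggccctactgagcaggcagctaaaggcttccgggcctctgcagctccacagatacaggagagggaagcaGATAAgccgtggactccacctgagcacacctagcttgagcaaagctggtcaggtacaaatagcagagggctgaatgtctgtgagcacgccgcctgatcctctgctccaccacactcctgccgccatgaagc
Gkn2, chr6:87373115-87373414, plus strand: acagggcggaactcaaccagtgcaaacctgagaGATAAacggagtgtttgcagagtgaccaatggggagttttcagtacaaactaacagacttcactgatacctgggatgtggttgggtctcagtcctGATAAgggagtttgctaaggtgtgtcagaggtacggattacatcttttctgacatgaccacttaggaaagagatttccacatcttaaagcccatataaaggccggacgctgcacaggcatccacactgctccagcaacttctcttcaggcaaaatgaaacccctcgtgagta
Gkn3, chr6:87388886-87389185, minus strand: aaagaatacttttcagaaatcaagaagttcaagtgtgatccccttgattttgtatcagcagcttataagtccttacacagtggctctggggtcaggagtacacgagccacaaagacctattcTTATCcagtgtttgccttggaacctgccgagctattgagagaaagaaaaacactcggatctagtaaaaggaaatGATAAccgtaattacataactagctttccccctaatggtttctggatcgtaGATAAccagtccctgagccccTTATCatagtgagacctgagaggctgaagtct

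GATAA was searched on both strands, and the Gkn3 window held 4 matches, the Gkn1 and Gkn2 windows 2 each. Of 32817 promoter windows of the same length in the table, 25.4% held at least 1 match, 5.27% at least 2 and 0.204% at least 4. ACAAT, a core sequence bound by SOX factors, was searched on both strands too and had 0 matches in the 3 windows, against 31.0% of all windows with at least 1. TATAAA on either strand was in the Gkn2 window (1 match) and in 13.6% of all windows. The motif matches did not overlap each other in these windows. The table held windows for 7 of the 10 members, and the Muc6 window had 2 GATAA matches while those of Pgc, Sult1c2 and Anxa10 had 0. TATAAA was also in the Pgc and Anxa10 windows (1 match each), and had 0 matches in those of Muc6 and Sult1c2. Such matches are letters in a window, and no binding was measured.

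The arrays differed in ways that touch the members. The Sox9 probe set that lost its signal read 2.42 to 2.75 on KO arrays and 5.84 to 7.61 on WT arrays. A brighter Sox9 probe set read 5.33 to 6.34 on KO arrays and 6.23, 5.38 and 2.68 in WT 1 to WT 3, and the remaining one was under 4 on all arrays. Markers of intestinal epithelium (5 of 5) and of crypts (4 of 4) were at or over 4 on every array. The crypt markers were lower on WT 2, with a mean log2 level of 9.30 there and 10.13 to 10.46 on the other arrays. KO 2 stood apart: 6 of 6 pancreatic acinar markers were at or over 4 there and 2 of 6 on each other array, with a summed log2 level of 67.8 against 29.2 to 32.1. Xist read 12.3 to 13.4 on KO 1 to KO 3 and 13.2 on WT 3, but 1.92 on WT 1 and 3.72 on WT 2, while the Y-linked Eif2s3y was over 10 only on WT 1 and WT 2 (10.10 and 10.12). The 3 mutants therefore carried the sex-linked pattern of WT 3 alone among the controls. The Gapdh 3′ minus 5′ difference, a sign of RNA quality, was 1.75 on WT 3 and 0.37 to 0.91 on the other arrays.

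Gkn3 was the one member whose arrays parted by genotype. Its brighter probe set (1429286_at) stood at 3.72, 2.88 and 2.81 in KO 1 to KO 3, against 5.27, 4.49 and 6.38 in WT 1 to WT 3. Every KO array lay under 4 and every WT array over it, with a gap of 0.77 between the highest KO and the lowest WT array. The KO mean was 3.14 ± 0.51 and the WT mean 5.38 ± 0.95 (SD, n = 3 for both), which differ by -2.24 ± 0.51 (limma SE) on the log2 scale. Here and below the limma SE is moderated over all probe sets tested, so it does not follow from these SDs alone. Since all KO arrays lay under 4, where low values are compressed, the difference may be compressed. Taking each KO array at no less than 4, the WT mean was at least 2.60-fold higher.

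The dimmer Gkn3 probe set (1438648_x_at) stood at 3.07, 3.02 and 3.02 in KO 1 to KO 3, against 4.90, 4.37 and 6.61 in WT 1 to WT 3. Its suffix marks a probe set with probes that may also match other transcripts. The 2 probe sets ordered the WT mice alike, with WT 3 highest and WT 2 lowest, and differed by at most 0.65 on an array. The means were 3.04 ± 0.03 and 5.29 ± 1.17 (SD, n = 3 for both), which differ by -2.25 ± 0.55 (limma SE), and the same bound gave at least 2.45-fold. Spread among the controls was wide, 1.89 and 2.24 log2 units from lowest to highest, and on the dimmer probe set the 3 KO arrays spanned 0.05. The plot of Gkn3 by mouse shows both.

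**Figure D1:**
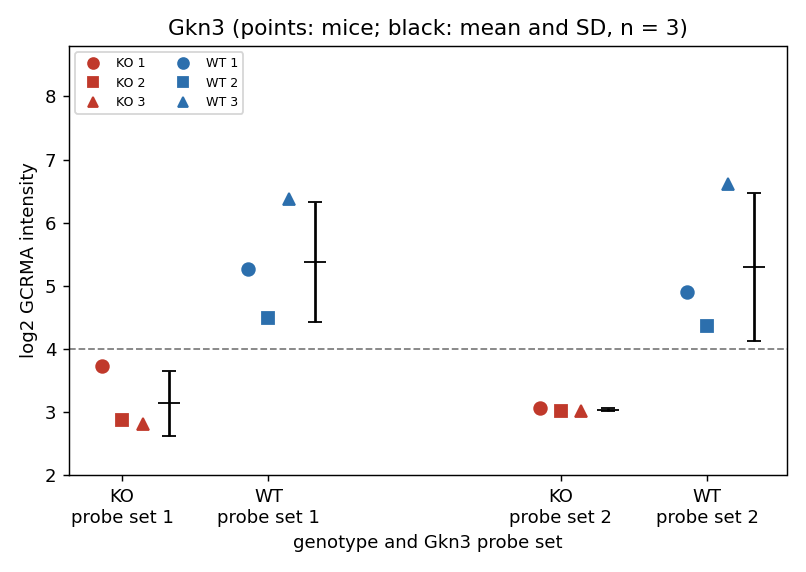
Log2 GCRMA intensity of both Gkn3 probe sets (1, brighter; 2, dimmer) in each KO (red) and WT (blue) mouse, with the mean and SD (black, n = 3) and the level of 4 (dashed). All KO points lie under 4 and all WT points over it, with WT 3 highest at 6.38 and 6.61.

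WT 3, the array with the highest Gkn3, was also the one with the largest Gapdh 3′ minus 5′ difference and the only control with high Xist. Without WT 3 the Gkn3 differences were -1.74 and -1.59, and without KO 2 they were -2.11 and -2.24. With a term for the Gapdh difference they were -1.72 and -1.68. Against WT 3 alone, the control that shares the mutants' Xist signal, they were -3.24 and -3.57, with 1 control array and so no spread in that group. WT 1 and WT 2, which differ from the mutants in sex-linked signal, read higher than each mutant on both probe sets. Without WT 3, sex-linked signal and genotype differ together and cannot be told apart. In this bulk RNA, fewer Gkn3-expressing cells and less Gkn3 RNA per cell cannot be told apart.

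The other gastrokines were at the floor in both genotypes. Gkn1 read 2.43 to 2.49 on one probe set and 2.35 to 2.41 on the other over all 6 arrays. Gkn2 read 2.53 to 2.60 on KO arrays and 2.55, 2.81 and 2.55 on WT 1 to WT 3. Such values give no order between genotypes.

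Of the 12 member probe sets, 3 were above the floor: both of Gkn3 and that of Sult1c2. Both Gkn3 probe sets passed through the WT arrays alone, so they had to differ, and without WT 3 their means fell under 4 and 1 of the 12 was left. Among these 3, 2 had the highest KO array below the lowest WT array, which held for 4.03% of all 18108 probe sets tested. The choice of members used this contrast, so the count is a description.

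**Figure D2:**
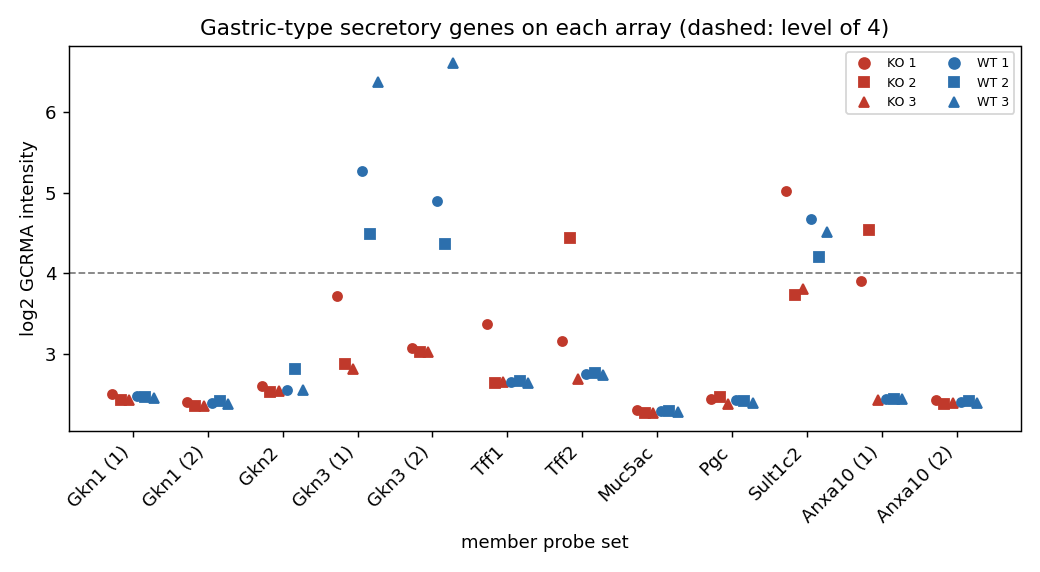
Log2 GCRMA intensity of the 12 member probe sets on each array (KO red, WT blue; 1 and 2 after a symbol mark the brighter and dimmer probe set), with the level of 4 dashed. The 3 probe sets with a mean over 4 are those of Gkn3 and Sult1c2, and Tff2 and 1 probe set of Anxa10 rise over it on KO 2.

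Sult1c2, which encodes a cytosolic sulfotransferase, was low on all arrays. It stood at 5.02, 3.73 and 3.81 in KO 1 to KO 3, against 4.67, 4.20 and 4.51 in WT 1 to WT 3. KO 1 was highest of the 6 and the other mutants lowest, so the groups overlapped. The KO mean was 4.19 ± 0.72 and the WT mean 4.46 ± 0.24 (SD, n = 3 for both). The difference of -0.28 ± 0.38 (limma SE) ran from -0.69 without KO 1 to -0.05 without KO 2.

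Both trefoil members had all control arrays at the floor, with 2 mutants over them for Tff2 and 1 for Tff1. Tff2 stood at 3.16, 4.44 and 2.69 in KO 1 to KO 3, against 2.74, 2.76 and 2.73 in WT 1 to WT 3. Only KO 2 reached 4, and KO 3 lay under the controls. Tff1 read 3.36 on KO 1 and 2.63 to 2.66 on the other 5 arrays, so no array reached 4. Their neighbour on chromosome 17, the goblet cell gene Tff3, was above the floor on every array (15.6 to 15.9), with a difference of -0.09 (limma adjusted p = 0.999).

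Anxa10, which encodes an annexin found in stomach epithelium, behaved in the same way on the brighter of its 2 probe sets. The brighter one (1449426_a_at) stood at 3.91, 4.54 and 2.42 in KO 1 to KO 3, against 2.44, 2.44 and 2.43 in WT 1 to WT 3. KO 1 and KO 2 stood over the controls, which spanned 0.01, and KO 3 was level with them. The other Anxa10 probe set read 2.38 to 2.42 on all arrays, so the 2 probe sets disagreed on KO 1 and KO 2.

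The signal of Tff2 and Anxa10 on KO 2 came with that of pancreatic and other genes on the same array. Cela2a, a pancreatic elastase gene, read 12.3 on KO 2 and 2.43 to 2.47 on the others. Ctrb1, Cpa1 and Cel, which encode pancreatic digestive enzymes, read 10.8, 10.1 and 9.69 on KO 2 and at most 2.53 on the other arrays. Pdx1, a transcription factor gene of the pancreas, duodenum and gastric antrum, read 7.499 on KO 2 and 2.62 to 2.76 elsewhere. The other acinar markers, Clps and Cela1, were over 4 on all arrays and parted on KO 2, where Cela1 was highest (11.6, against 6.62 to 7.87) and Clps lowest (13.3, against 13.5 to 15.02).

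On KO 1 a few stomach genes, picked after their values were seen, were highest beside Tff1. Cym, the gene of the milk-clotting protease chymosin, read 7.28 on KO 1, 3.995 on KO 2, 3.13 on KO 3 and 3.65 to 3.66 on the controls. Psca, a surface antigen gene of stomach epithelium, read 3.94 on KO 1 and 2.26 to 2.79 on the others, and the proton pump gene Atp4a read 3.60 on KO 1 and 2.58 to 2.77 on the others. Both stayed under 4, and Atp4b read at most 2.74. Other stomach genes did not share this: Cldn18, Lipf, Pga5 and Gast read 2.48, 2.04, 2.11 and 2.14 on KO 1, close to the other arrays, and Ctse was lowest there (8.42). Whether tissue other than jejunal crypt contributed to these values was not tested.

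Among 26175 probe sets with all 3 WT arrays under 4, 233 (0.890%) were at or over 4 on KO 2 alone, as Tff2 was, and 223 (0.852%) on KO 1 alone. On KO 3 alone there were 100 (0.382%), and on all 3 KO arrays 14 (0.0535%). The reverse pattern, all 3 KO arrays under 4 and all 3 WT arrays at or over it, was that of Gkn3. It was found in 41 of 26060 probe sets with all KO arrays under 4 (0.157%). Gkn3 was chosen as lower in KO, so its place among these 41 is a description. The plot of genes with single-array signal sets Tff2, Anxa10 and Tff1 beside the pancreatic and stomach genes.

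**Figure D3:**
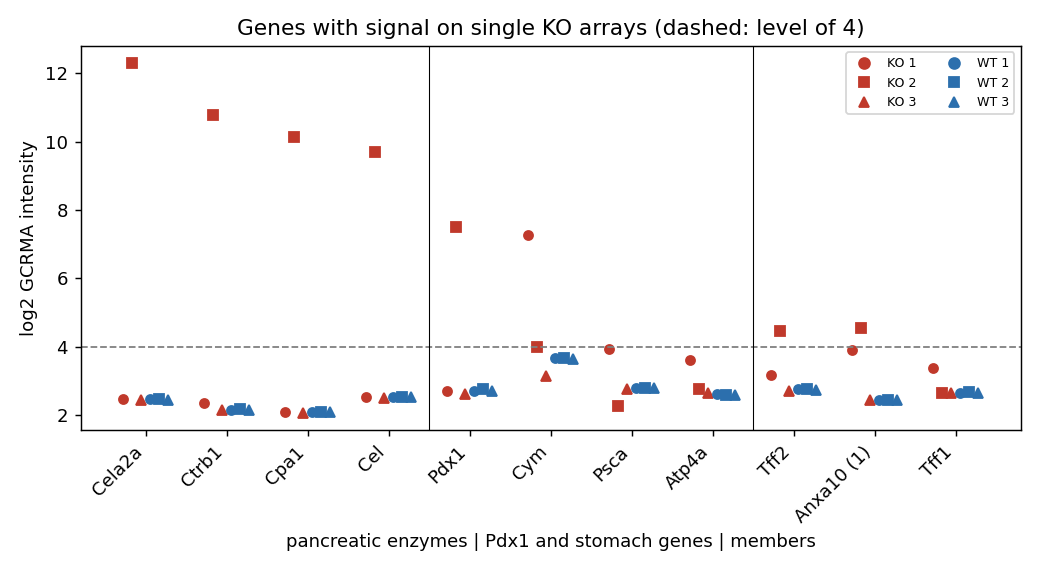
Log2 GCRMA intensity on each array (KO red, WT blue) of pancreatic enzyme genes, Pdx1 and stomach genes, and the members Tff2, Anxa10 (brighter probe set) and Tff1; the dashed line is the level of 4. Cela2a, Ctrb1, Cpa1, Cel and Pdx1 are high on KO 2 alone, Cym is highest on KO 1, and the control arrays lie together under 4 in every column.

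The gel-forming mucin Muc5ac and the pepsinogen gene Pgc were at the floor throughout. Muc5ac read 2.26 to 2.30 and Pgc 2.37 to 2.46 over the 6 arrays. Muc2, which lies between Muc6 and Muc5ac on chromosome 7, was above the floor on every array (13.5 to 14.4), with a difference of 0.04 (limma adjusted p = 0.999). In all, 9 of the 12 member probe sets were below the floor on average, 7 of them on all 6 arrays, and 6 never reached 3.

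Other genes of stomach cells were taken from 6 lists of surface mucous, gland mucous, chief, parietal and endocrine cells and of transcription factors. Of 48 such genes on the array, 27 were below the floor, among them Cldn18, Sox2, Lipf, Pga5 and Gast, and 21 were tested. Of the 21, 0 passed over all probe sets in limma and 3 had an unadjusted p under 0.05, against 0.0110% and 3.62% of all probe sets tested. Among these 3, Cblif and Slc5a8 passed the filter only through the arrays where they were high. Both had to differ between arrays to be tested, so the count of 3 is a description. The differences were negative in 11 and positive in 10, with a median of -0.03, against a median of 0.03 over all 18108 probe sets tested.

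The 3 genes with an unadjusted p under 0.05 were in the list of chief cells, where 5 genes were tested. Cblif, the gene of gastric intrinsic factor, stood at 8.56, 7.07 and 8.15 in KO 1 to KO 3, against 3.42, 3.43 and 3.31 in WT 1 to WT 3, opposite in direction to Gkn3. Cblif passed the filter through the KO arrays alone, as all WT arrays lay under 4, and with those taken at 4 the KO mean was at least 15.2-fold higher. The fitted difference of 4.54 ± 0.38 (limma SE), taken against values at the floor, missed the threshold (limma adjusted p = 0.0628). It passed without KO 2 (adjusted p = 0.0186), and the adjusted p ran from 0.0186 to 0.547 over the alternatives that gave Cblif a value. Bhlha15, a transcription factor gene of secretory cells, had every KO array (5.79 to 6.49) below every WT array (6.52 to 8.08), with a gap of 0.03. That order held for 4.03% of all probe sets tested, and the Bhlha15 difference was -1.21 (limma adjusted p = 0.999). Slc5a8, a transporter gene, was at 7.11 and 9.23 in WT 1 and WT 2 but at 3.00 in WT 3, near the mutants (2.71 to 2.93). Its high arrays were thus the 2 with low Xist (difference -3.65, limma adjusted p = 0.999).

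In the other lists the tested genes overlapped between genotypes, and each had a limma adjusted p of 0.999. For surface mucous cells, the cathepsin gene Ctse differed by 0.78, with KO 2 highest at 10.6, and the calpain gene Capn9 by -0.03. For gland mucous cells, Slc12a2, a chloride cotransporter gene, differed by -0.49, Spink4 by -0.17 and Cd44 by 0.09. The parietal list had Esrrg at 0.72, the water channel gene Aqp4 at 0.38 and the potassium channel gene Kcnq1 at 0.25. Of the stomach hormones, Ghrl (ghrelin) differed by -0.37 and Sst (somatostatin) by 0.32. The endodermal factors Foxa3, Spdef and Foxa1 differed by 0.31, -0.24 and -0.23. Gata4, which encodes a GATA factor, read 9.65 to 10.3 on all arrays, with a difference of 0.05.

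**Figure D4:**
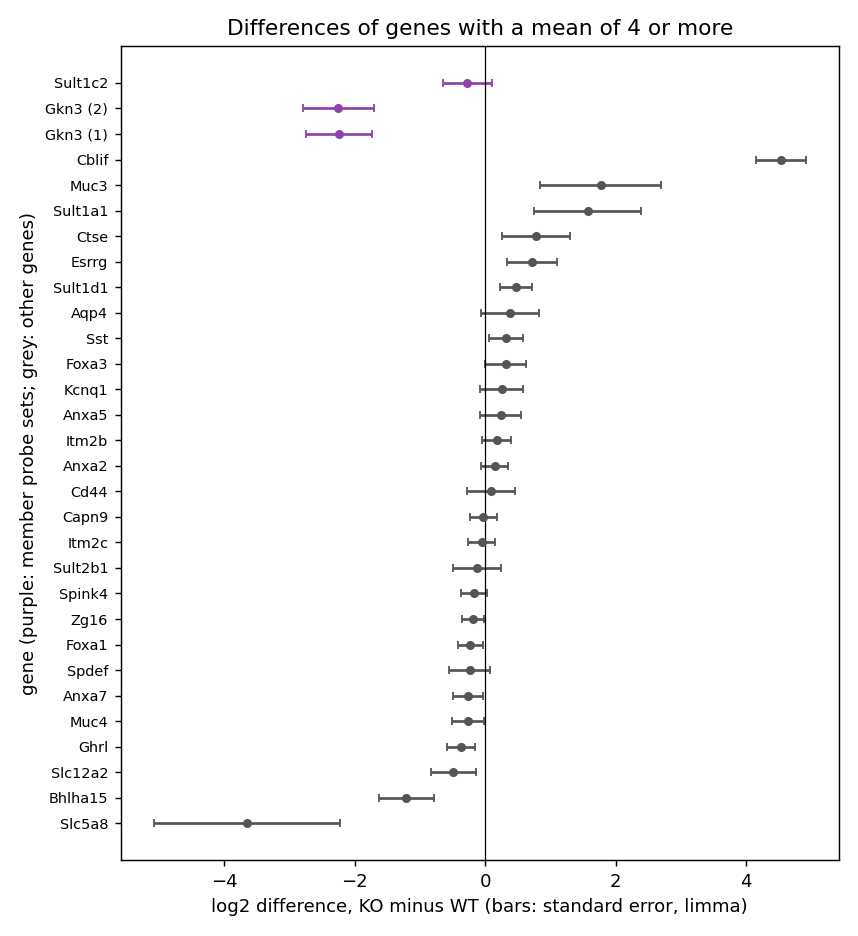
Log2 difference KO minus WT with its limma standard error for the member probe sets (purple) and the named other genes (grey) with a mean of at least 4. Gkn3 lies at -2.24 and -2.25, Cblif at 4.54 and Sult1c2 at -0.28.

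The relatives of the members were also followed. Of the intestinal trefoil and mucin genes, 10 of 11 were above the floor and 0 passed. The membrane mucin gene Muc3 was at 9.84 and 9.74 in WT 1 and WT 2 but at 12.6 to 13.3 in the mutants and WT 3, a difference of 1.77 (limma adjusted p = 0.999) that passed without WT 3 (2.95, adjusted p = 0.0242). As with Slc5a8, the 2 arrays that stood apart were those with low Xist. Zg16 (-0.18) and Muc4 (-0.27) had overlapping groups.

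Of other genes with a BRICHOS domain, 2 of 6 were above the floor, Itm2b (0.17) and Itm2c (-0.06), and 0 passed. Of other sulfotransferases 4 of 6 were above it and 0 passed. Sult1d1 had every KO array above every WT array (0.47, limma adjusted p = 0.999), as 5.09% of all probe sets tested did, and Sult1a1 (1.57) and Sult2b1 (-0.13) overlapped. Of other annexins 6 of 10 were above it and 0 passed, with Anxa7 at -0.26, Anxa5 at 0.24 and Anxa2 at 0.14.

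The genes most like Gkn3 over the 6 arrays were sought among 1694 genes above the floor with an SD of at least 0.5. The highest Pearson r with the brighter Gkn3 probe set belonged to Amigo2 (0.987), Evl (0.975), Acsm3 (0.969), Pkdcc (0.964) and Sorbs2 (0.960), and 22 genes exceeded 0.9. Over 6 arrays such an r holds the difference between genotypes and the order within the controls together, and all values share the same arrays. Amigo2, an adhesion molecule gene, read 4.70 to 5.01 on KO arrays and 5.79, 5.20 and 6.28 on WT 1 to WT 3. Evl, which encodes a regulator of actin filaments, read 5.66 to 6.27 on KO arrays and 7.89, 7.34 and 8.26 on WT 1 to WT 3. The 5 were picked by r with Gkn3 over these arrays, so the pattern they share and the direction of their differences follow from the choice. In all 5 genes WT 3 was highest, WT 2 lowest of the controls, and no KO array reached the WT range. Their differences, from -2.37 (Acsm3) to -0.94 (Amigo2), did not pass in limma (adjusted p = 0.344 to 0.999).

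The crypt marker list held 4 genes, the stem cell genes Lgr5, Olfm4 and Ascl2 and the proliferation gene Mki67, and the Paneth cell list 3. Lgr5 read 6.24 to 6.52 on KO arrays and 6.86, 5.51 and 6.61 on WT 1 to WT 3, a difference of 0.08. For all 4 crypt markers WT 2 was the lowest control, as for Gkn3, but for Lgr5 WT 1 was the highest. Olfm4 differed by -0.20 and Ascl2 by 0.97, and of the 4 crypt markers 0 passed (limma adjusted p = 0.999 for Lgr5, Olfm4 and Ascl2). For Ascl2 every KO array (8.27 to 8.59) lay above every WT array (6.19 to 8.16), opposite in direction to Gkn3. That order held for 5.09% of all probe sets tested. Of the Paneth cell markers, which lie at the crypt base too, 0 of 3 passed, against 0.0110% of all probe sets tested. In 2 of them the highest KO array was below the lowest WT array, which held for 4.03% of all probe sets tested. Mmp7, the gene of a protease that activates defensins, read 6.82 to 8.60 on KO arrays and 12.3 to 13.3 on WT arrays (difference -4.71, limma adjusted p = 0.156). The lysozyme gene Lyz1 differed by -0.75 (adjusted p = 0.914) and the ribonuclease gene Ang4 by 0.06 (0.999). Of Igfbp4 and Rgmb, stem cell zone genes chosen after their values were seen, Igfbp4 was lower in KO (-3.45 on its brightest probe set, limma adjusted p = 0.0142) and Rgmb differed by -1.28 (adjusted p = 0.871). Another Igfbp4 probe set passed too (-4.88, limma adjusted p = 0.0173), with all its KO arrays under 4. These 2 were the only ones that passed among the 18108 probe sets tested. The remaining Igfbp4 probe sets differed by -2.61 to -0.01 and the remaining Rgmb ones by -1.49 to -0.11. On its brightest probe set the Igfbp4 call ended without KO 2 (adjusted p = 0.0930), KO 3 (0.0526), WT 1 (0.0968) or WT 2 (0.110), with differences of -3.57 to -3.38. On that Igfbp4 probe set WT 3 was highest (8.35), as for Gkn3, but WT 1 was lowest of the controls (7.91).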

How the data were processed

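The authors deposited log2 intensities of 45101 Affymetrix probe sets, made with GCRMA per the submitters' processing notes, which name limma too; their versions were not given in the sources used here. Dim probe sets lie at a floor after GCRMA, which compresses low differences. Control probe sets (64) were left out, and 0 columns of other samples were used. Symbols came from the platform annotation, where 34945 probe sets had 1 symbol, 932 several and 9160 none. The 18108 probe sets averaging 4 or more entered a limma 3.58.1 fit under R 4.3.3 (lmFit, eBayes, KO minus WT, two-sided, Benjamini-Hochberg over all of them, threshold 0.05), after a test on simulated data. Precision is limited by the number of arrays. Mice are the replicates. Each p-value sets a mean difference against the spread of these 6 within their groups, moderated by limma over all probe sets tested. Sex-linked signal, which was uneven between the groups, was not a term in the fit.

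Members and lists were chosen with earlier results of these data known. Each list gene is its brightest probe set. Named were all members, up to 3 genes of smallest p in each list, Cblif, and the 5 genes most like Gkn3; others were chosen after their values were seen. Alternatives tried: the replicate number as a block, filters at 6 and off, other floors (3, 5 and 6), quantile normalization, median centring, another prior, array weights and each array left out. A Gapdh term and the 4 arrays with high Xist were added after seeing the data. Promoter windows are RefSeq's (GRCm38.p6).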

Additional observations from a re-analysis of the deposited data

How the results depend on the processing

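The Gkn3 difference was negative on both probe sets under every alternative computed, from -2.69 to -1.74 and from -2.71 to -1.59 with each array left out, and at -3.24 and -3.57 with the 4 arrays of high Xist alone. A filter at 6 removed Gkn3, so it gave no Gkn3 value. The count of 12 member probe sets above the floor, 3, was 5 with the floor at 3 and 0 with it at 5 or at 6, and 1 to 3 with each array left out. The count over all probe sets, 2, was 0 with no filter, 1 with a filter at 6, 4 with quantile normalization, 11 with array weights, 0 with a Gapdh term and 0 to 16 with each array left out. Of the stomach cell genes and relatives of the members (43 tested), 0 passed, and 1 with quantile normalization and with array weights (Cblif each time); it was 0 to 1 with each array left out (Cblif without KO 2, Muc3 without WT 3). The cause of these moves was not tested.

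With the label number as a replicate block the count over all probe sets was 0, and that of these other genes was 0. Same-numbered mice did not deviate together (correlations -0.05, -0.29 and 0.03), so the numbers were not taken as pairs. Of 346 tested values of 27 named genes under alternatives, 342 kept their side of the threshold and 4 passed it newly (Cblif 3 times, Muc3 once). In 12 values, of 8 genes, the sign differed from that of the main values, and 0 of these 12 passed. The filter at 6 removed Cblif, and the Gapdh term was not run for these genes. Sult1c2, which has no test, moved to -0.87 with array weights.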

Other observations

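KO 1, the mouse with Tff1 and Anxa10 over the controls, carried signal of other genes that read under 4 on the remaining arrays. The brightest probe sets at or over 4 on KO 1 alone, among those with all WT arrays under 4, were those of Lama3 (7.42), a laminin chain gene, and Cym (7.28). Next came Iglv1 (6.42), an immunoglobulin gene, Hamp2 (6.14), a hepcidin gene, and Serpina1c (6.09), a protease inhibitor gene. On KO 2 the brightest such probe set was that of 2210010C04Rik (12.5), followed by Cela2a (12.3), Cela3b (12.05), Ctrl (11.1) and Prss2 (11.02), which encode pancreatic proteases. These genes were named by their level on the array, after the values were seen, and no test was run.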
